A study of Homo sapiens with 10 samples.

Results

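The data described here are a pair of chromatin immunoprecipitation sequencing (ChIP-seq) libraries from 22RV1 cells, a human prostate cancer cell line. Cells of the HA-RB(245-255) library received a plasmid for an HA-tagged fragment of the retinoblastoma protein RB spanning residues 245 to 255, and cells of the EV(245-255) library received the matching empty vector. These are 2 of the 10 samples of the series, chosen by their labels. Both carry the label of transfection or infection, and both were grown in RPMI-1640 with 10% fetal bovine serum, fixed with formaldehyde and sonicated. There is 1 library on each side, so no value below has a replicate check and no test is given. The immunoprecipitated protein is not named in the labels. The genotype label of the HA-RB(245-255) sample calls it a control of the overexpression, whereas its title names the construct, and the title was followed here. The series' design text gives the fragment as residues 244 to 255, and the sample labels give 245 to 255.

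The other immunoprecipitated samples, all from 22RV1 cells, are RB1_S1 (siRNA knockdown of RB1) with its control RB1_NC, and HA-RBN (plasmid overexpression of RBN) with its empty vector EV(RBN). The remaining 4 samples are IgG controls and were not analysed here. The series title names phosphorylation of RB at S249 and T252, 2 residues that lie inside the fragment, together with TRIM24, mTOR and DUSP2. The pair therefore bears on whether the short RB fragment altered where, or how strongly, the immunoprecipitated protein was found on the genome.

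RB is a pocket protein that binds E2F transcription factors and holds back genes of DNA replication and mitosis until cyclin-dependent kinases phosphorylate it. TRIM24 is a chromatin reader and coregulator of nuclear receptors. DUSP2 is a nuclear phosphatase that removes phosphate from ERK and other MAP kinases, and MTOR is the kinase that couples nutrients to cell growth.

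Of the summits with at least 20 fragments, 52.2% in HA-RB(245-255) and 53.5% in EV(245-255) lay within 1 kb of a gene end, mostly at GC-rich starts, and the promoters below show the kind of sequence they fell in. DHRS13, B3GALNT2 and MAP4 were chosen from the gene ends highest in HA-RB(245-255) relative to EV(245-255), and MEPCE, DGKE and EXOSC2 from the lowest. DUSP2 is shown because the series title names it. Each window runs from 250 bases before to 50 bases after the RefSeq start on GRCh38.p14 and is written 5′ to 3′ on the gene's strand. Capitals mark every GGGCGG (the box bound by SP and KLF factors) and every CCAAT, either as written or as their reverse complements CCGCCC and ATTGG. Neighbouring boxes can overlap, as in the DGKE and DUSP2 windows, and neither motif is present in the DHRS13 window. The MEPCE window belongs to a RefSeq start inside the gene, downstream of its outermost start.
DHRS13 (chr17:28903030-28903329, minus strand): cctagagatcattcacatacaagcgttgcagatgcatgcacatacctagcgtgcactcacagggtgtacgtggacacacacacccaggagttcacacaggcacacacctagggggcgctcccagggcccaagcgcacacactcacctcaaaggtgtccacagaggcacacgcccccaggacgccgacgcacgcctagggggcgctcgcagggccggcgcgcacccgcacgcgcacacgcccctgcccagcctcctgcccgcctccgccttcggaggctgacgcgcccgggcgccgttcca
B3GALNT2 (chr1:235504403-235504702, minus strand): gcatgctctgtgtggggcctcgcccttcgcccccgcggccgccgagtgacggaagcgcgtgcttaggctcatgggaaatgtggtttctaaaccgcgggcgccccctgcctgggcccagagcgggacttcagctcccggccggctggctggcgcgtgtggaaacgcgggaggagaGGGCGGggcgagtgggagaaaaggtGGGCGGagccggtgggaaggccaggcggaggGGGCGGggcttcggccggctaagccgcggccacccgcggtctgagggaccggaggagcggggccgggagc
MAP4 (chr3:48088799-48089098, minus strand): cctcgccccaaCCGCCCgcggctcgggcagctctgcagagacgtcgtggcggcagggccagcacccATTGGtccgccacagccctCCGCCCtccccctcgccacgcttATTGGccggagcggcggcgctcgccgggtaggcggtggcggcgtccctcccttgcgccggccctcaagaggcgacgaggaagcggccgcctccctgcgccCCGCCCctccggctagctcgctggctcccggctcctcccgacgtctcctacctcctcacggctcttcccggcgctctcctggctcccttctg
MEPCE (chr7:100429197-100429496, plus strand): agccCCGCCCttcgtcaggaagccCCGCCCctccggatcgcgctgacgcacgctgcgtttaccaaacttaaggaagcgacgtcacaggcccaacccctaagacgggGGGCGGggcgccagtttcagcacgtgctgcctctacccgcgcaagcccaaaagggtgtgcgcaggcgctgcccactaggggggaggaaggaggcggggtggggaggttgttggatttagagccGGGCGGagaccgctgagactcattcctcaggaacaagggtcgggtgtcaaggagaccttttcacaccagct
DGKE (chr17:56833901-56834200, plus strand): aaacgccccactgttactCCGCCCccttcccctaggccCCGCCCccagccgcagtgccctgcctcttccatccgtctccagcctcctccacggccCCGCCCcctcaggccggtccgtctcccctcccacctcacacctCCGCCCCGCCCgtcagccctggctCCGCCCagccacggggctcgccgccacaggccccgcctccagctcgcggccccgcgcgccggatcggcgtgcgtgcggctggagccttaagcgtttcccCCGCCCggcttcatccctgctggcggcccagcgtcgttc
EXOSC2 (chr9:130693510-130693809, plus strand): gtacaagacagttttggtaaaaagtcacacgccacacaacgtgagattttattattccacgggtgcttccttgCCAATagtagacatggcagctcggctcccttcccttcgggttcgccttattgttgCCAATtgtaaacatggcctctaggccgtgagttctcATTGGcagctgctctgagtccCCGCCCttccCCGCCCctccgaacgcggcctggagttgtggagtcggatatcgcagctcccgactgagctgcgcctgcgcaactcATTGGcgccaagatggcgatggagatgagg
DUSP2 (chr2:96145391-96145690, minus strand): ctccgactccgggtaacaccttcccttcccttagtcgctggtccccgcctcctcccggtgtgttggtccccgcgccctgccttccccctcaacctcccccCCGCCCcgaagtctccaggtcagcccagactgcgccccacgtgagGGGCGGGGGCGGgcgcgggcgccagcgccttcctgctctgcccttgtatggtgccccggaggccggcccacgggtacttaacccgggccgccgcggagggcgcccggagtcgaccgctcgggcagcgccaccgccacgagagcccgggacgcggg

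The HA-RB(245-255) summit fell on base 196 of the DHRS13 window and the EV(245-255) summit on base 240. Both summits fell on base 12 of the B3GALNT2 window. In the MAP4 window they fell on base 35 in HA-RB(245-255) and base 80 in EV(245-255). In the MEPCE window the HA-RB(245-255) summit fell on base 273 and the EV(245-255) summit on base 136, and in the DGKE window they fell on bases 15 and 13. In the EXOSC2 window they fell on bases 248 and 179. The DUSP2 window held the HA-RB(245-255) summit at base 224, while the EV(245-255) summit lay beyond its end. The GGGCGG box was common at these summits in general: it was present in 80.5% of the 3262 promoter windows that held a summit of both libraries, and in 56.3% of all 22011 RefSeq windows. CCAAT was present in 46.3% of windows with a shared summit, against 34.7% of all windows. An E2F site (TTTCGCGC or TTTGGCGC, either strand) was present in 3.22% of windows with a shared summit, against 1.49% of all. The TATA box (TATAAA, either strand) ran the other way, at 3.65% against 9.49%. The windows with a shared summit had a median GC content of 66.7%, against 62.3% for all windows, so these shares differ together with base composition.

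The same boxes were counted in promoters whose log2 ratio of HA-RB(245-255) over EV(245-255) had a 95% interval above or below 0, as defined with the ratios. GGGCGG was present in 12 of 16 windows with an interval above 0 and in 34 of 42 with an interval below 0. CCAAT was present in 9 of the 16 and in 16 of the 42. An E2F site was present in 3 of the 16 and 2 of the 42, and the TATA box in 3 and 1. Among the 1385 windows with a shared summit of at least 40 fragments, GGGCGG was present in 85.6% and CCAAT in 54.5%. An E2F site was present in 4.48% of those windows and the TATA box in 3.39%. The counts in the 16 and the 42 are small, and no difference was tested. Across 1171 promoter windows, the GC content and the log2 ratio of HA-RB(245-255) over EV(245-255) had Pearson's r of -0.09 and Spearman's rho of -0.08, a description across promoters of the same pair of libraries. A match to a motif describes the letters of the window and not a bound site.

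The deposited peak lists hold 95816 intervals for HA-RB(245-255) and 77488 for EV(245-255), and they cover 92.8% and 95.6% of the mapped chromosomes, so a comparison by overlap would not separate them. The median interval was 18202 bp wide in HA-RB(245-255) and 22275 bp in EV(245-255). Each interval has 1 summit, the base with the highest stack of fragments. The number of fragments at each summit was recovered from the fold enrichment and the −log10 p of the same line. The median summit stood on 3 fragments in both lists. Stacks of at least 20 fragments were found at 4045 summits of HA-RB(245-255) and 4106 of EV(245-255). The general background was 0.250 fragments per base in HA-RB(245-255) and 0.187 in EV(245-255). For scale, the prostate luminal markers (KLK3 and FOXA1 among them) had a summit near a gene end for 7 of 10 genes in HA-RB(245-255) and 5 of 10 in EV(245-255), with at most 14 and 19 fragments. Those of blood had one for 2 of 4 genes in each library, with at most 4 and 5 fragments, and the 4 of fibroblasts and 2 of liver and pancreas had none. None of these markers had a summit pair within 250 bp. Such lists show where a protein lay on DNA, not which genes were expressed.

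Both libraries had summits at a similar number of genes, and at similar distances from their starts. A summit lay within 1 kb of an end of 9102 of 19970 protein-coding genes in HA-RB(245-255) (45.6%) and of 9082 in EV(245-255) (45.5%). Of the 15811 genes whose strand is known, 6836 had a summit at the start in HA-RB(245-255) (43.2%) and 6842 in EV(245-255) (43.3%). Far ends had one in 1085 genes of HA-RB(245-255) (6.86%) and in 1090 genes of EV(245-255) (6.89%). With stacks of at least 20 fragments, starts were marked in 2043 genes in HA-RB(245-255) and 2116 genes in EV(245-255), and far ends in 137 and 122. Among summits of at least 20 fragments, 1746 of HA-RB(245-255) (43.2%) and 1824 of EV(245-255) (44.4%) lay within 1 kb of a start. Their median position relative to the start was -96 bp in HA-RB(245-255) and -99 bp in EV(245-255), negative values being upstream, with quartiles of -184 and 14 bp in HA-RB(245-255) and of -176 and -14 bp in EV(245-255).

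**Figure D1:**
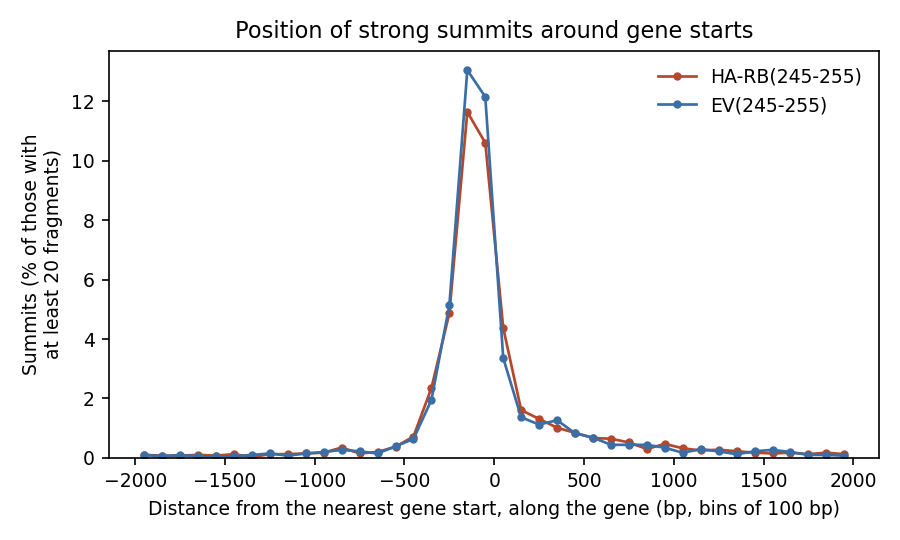
Share of summits of at least 20 fragments (y axis, percent) by distance from the nearest gene start (x axis, bp, 100 bp bins, negative upstream), for HA-RB(245-255) and EV(245-255). Both curves peak just upstream of the start, with medians of -96 bp and -99 bp.

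Summits were then paired one to one within 250 bp on chromosomes 1 to 22 and X. The pairing gave 13706 shared summits, 14.9% of the HA-RB(245-255) summits and 18.5% of the EV(245-255) summits. Sharing followed the size of the stack. Of HA-RB(245-255) summits with 1 to 4 fragments 4.92% had a partner, and of those with at least 40 fragments 85.6% did (95% interval 83.6 to 87.5%). The shares in EV(245-255) were 6.55% and 86.2% (84.2 to 88.0%). These exact (Clopper-Pearson) intervals, and all others here, cover counting error only, and sequenced fragments are not all independent molecules. Where both summits together held at least 40 fragments, the partners lay a median of 24 bp apart, and 13.2% lay on the same base.

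At shared summits the median log2 ratio of enrichment over background, HA-RB(245-255) over EV(245-255), was -0.42. The median log2 ratio of the fragment numbers themselves was 0.00. The shift in enrichment therefore equals the higher general background of HA-RB(245-255). The ratios below are given relative to the median over shared gene ends, so that 0 means the typical gene end of this pair.

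At most gene ends the stacks with the fragment and with the empty vector differed by no more than counting error gives. A shared summit pair lay within 1 kb of an end of 4987 of the 19970 genes, in 4273 gene end pairs. Of these, 1692 held at least 40 fragments over both libraries, and their relative log2 ratio had a standard deviation of 0.353, against 0.360 from counting error alone. In 4 of the 1692 (0.236% of those measured) HA-RB(245-255) was more than 2-fold higher, and in 8 (0.473%) more than 2-fold lower. The interval lay above 0 at 22 gene ends (1.3%) and below 0 at 57 (3.37%), together 4.67%, and 95% intervals leave out up to 5% of values by construction. Centred on the median of these 1692 gene ends, -0.07, rather than of all shared gene ends, the counts were 28 above and 40 below. Without any centring, that is as enrichment over background, they were 1 above and 458 below. These counts carry the general shift in enrichment, whose source was not tested. Among the 334 gene ends with at least 100 fragments the standard deviation was 0.274, against 0.249 from counting, with 7 intervals above 0 and 22 below (8.68% together). Among the 89 with at least 160 fragments it was 0.270, against 0.201 from counting, so the strongest ends varied more than counting error gives. The fragment number had more than 1 solution at 9.69% of the 1692 gene ends in HA-RB(245-255) and 16.9% in EV(245-255). The lowest was used, and with the highest the standard deviation was 2.68. These spreads cover sites that kept a summit in both libraries, and a site that differed strongly could have lost its partner.

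**Figure D2:**
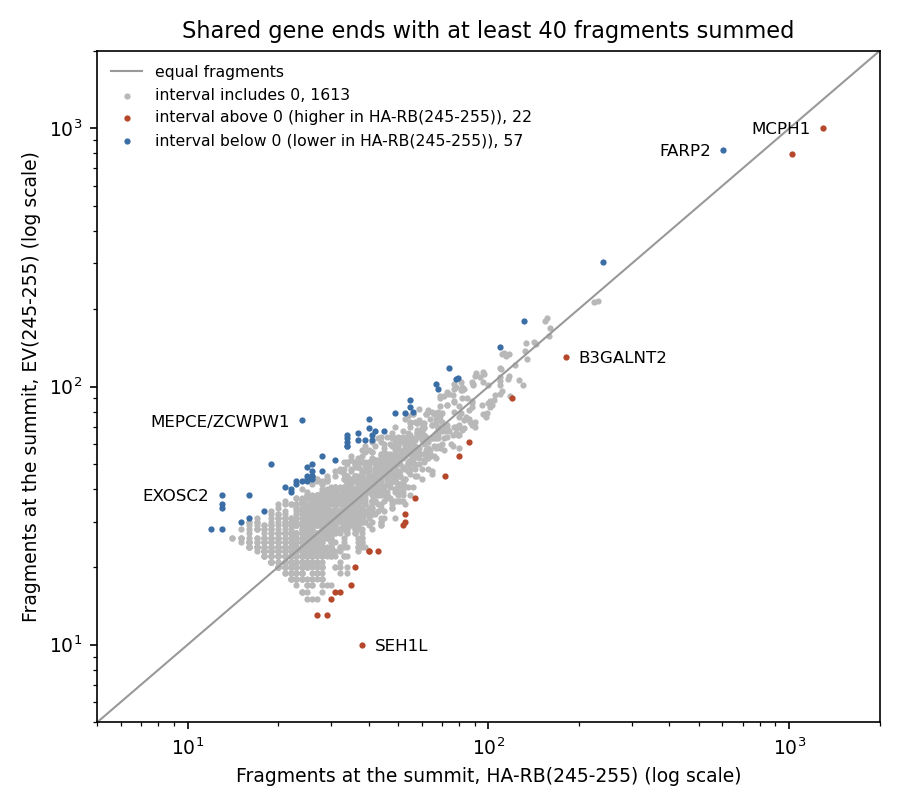
Fragments at the summit in HA-RB(245-255) (x axis, log scale) and EV(245-255) (y axis, log scale) for 1692 shared gene ends with at least 40 fragments over both libraries. Red points (22) have an interval above 0, blue points (57) an interval below 0, and the rest are grey and follow the diagonal.

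The gene end with the highest ratio was that of SEH1L, which encodes a nucleoporin that is also a subunit of the GATOR2 complex upstream of mTORC1. It had 38 fragments in HA-RB(245-255), 222 bp inside its start at chr18:12948233, and 10 fragments in EV(245-255) at chr18:12948449, a relative log2 ratio of 1.93 (0.89 to 3.10). As enrichment over each library's background, to allow for depth, this was 152 times in HA-RB(245-255) and 53.4 times in EV(245-255), beside 234 in RB1_S1, 291 in RB1_NC, 94.6 in HA-RBN and 49.1 in EV(RBN). Both empty vectors were thus the lowest of the 6 libraries at SEH1L, a gene end chosen for its high ratio. EV(RBN) was also the lowest at TRIM24 (27.3 times) and DGKE (19.1 times), though not at MCPH1 (682, against 431 in HA-RBN). Its low rank is therefore not particular to SEH1L. At the shared start region of CREB3L4, a CREB family factor, and SLC39A1, a zinc transporter, the stacks were 29 in HA-RB(245-255) and 13 in EV(245-255), a ratio of 1.16 (0.17 to 2.22). DHRS13, a short-chain dehydrogenase family member, had 35 fragments in HA-RB(245-255) and 17 in EV(245-255), a ratio of 1.04 (0.17 to 1.97). B3GALNT2, a glycosyltransferase that modifies dystroglycan, had 181 fragments in HA-RB(245-255) and 130 in EV(245-255) on the same base, with a ratio of 0.48 (0.14 to 0.81). MCPH1, a DNA damage and chromosome condensation gene, had 1299 fragments in HA-RB(245-255) and 1008 in EV(245-255), a ratio of 0.37 (0.25 to 0.49). At these last 2 genes more than 100 fragments in each library gave narrow intervals around a difference of less than 2-fold.

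Apart from SEH1L and MCPH1, the 12 highest gene ends had lower bounds close to 0, from 0.06 to 0.17. MAP4, which encodes a microtubule-binding protein, had 43 fragments in HA-RB(245-255) and 23 in EV(245-255), a ratio of 0.90 (0.14 to 1.70). OGDH, an enzyme of the citric acid cycle, had 53 and 30 fragments in HA-RB(245-255) and EV(245-255), a ratio of 0.82 (0.15 to 1.52). HNRNPF, an RNA-binding splicing protein, had 53 fragments in HA-RB(245-255) and 32 in EV(245-255), a ratio of 0.73 (0.07 to 1.41). The ends of AGPAT5, KREMEN2 with PAQR4, DGCR2 and ALMS1 ranged from 30 to 72 fragments in HA-RB(245-255) and from 15 to 45 in EV(245-255).

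The lowest ratio by its bound was at MEPCE and ZCWPW1, divergent genes for the capping enzyme of 7SK RNA and for a histone methylation reader of meiosis. The region had 24 fragments in HA-RB(245-255) at chr7:100429469, 679 bp inside MEPCE, and 74 in EV(245-255) at chr7:100429332, 542 bp inside it, a relative log2 ratio of -1.62 (-2.35 to -0.94). As enrichment over background this was 96.0 times in HA-RB(245-255) and 395 times in EV(245-255), beside 195 in RB1_S1 and 225 in RB1_NC. HA-RB(245-255) was thus the lowest of the 4 libraries with a summit there, but not of all. HA-RBN and EV(RBN) could hold at most 56 and 27 fragments there, on backgrounds of 0.634 and 0.367 per base. As enrichment, both limits lie below the 96.0 of HA-RB(245-255). DGKE, a diacylglycerol kinase, shares its promoter with C17orf67. It had 19 fragments in HA-RB(245-255) and 50 in EV(245-255), 236 and 238 bp before the DGKE start, a ratio of -1.40 (-2.24 to -0.61).

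EXOSC2, a subunit of the RNA exosome, had 13 fragments in HA-RB(245-255) and 38 in EV(245-255), a ratio of -1.55 (-2.58 to -0.61). ABCB10, a mitochondrial transporter, had 13 fragments in HA-RB(245-255) and 34 in EV(245-255), a ratio of -1.39 (-2.43 to -0.43). SPTSSA, a subunit of serine palmitoyltransferase, had 16 fragments in HA-RB(245-255) and 38 in EV(245-255), a ratio of -1.25 (-2.19 to -0.37). These 3 genes had small stacks in HA-RB(245-255), which leaves wide intervals. INTS6, a subunit of the Integrator complex, had 34 fragments in HA-RB(245-255) and 65 in EV(245-255). TMEM106B, a lysosomal membrane protein, had 40 fragments in HA-RB(245-255) and 75 in EV(245-255), a ratio of -0.91 (-1.50 to -0.33). FARP2, a guanine nucleotide exchange factor, had by far the most fragments of the 12. It had 604 in HA-RB(245-255) and 827 in EV(245-255) on the same base, 507 bp before its start, and a ratio of -0.45 (-0.61 to -0.30). EML6, NIPA2, SCML1 and VPS13A make up the 12, with 13 to 34 fragments in HA-RB(245-255) and 35 to 63 in EV(245-255).

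Of the 10 gene ends with the most fragments, 5 had an interval that held 0. TOMM40, the pore of protein import into mitochondria, had 225 fragments in HA-RB(245-255) and 212 in EV(245-255), a ratio of 0.09 (-0.19 to 0.36). GET4, which helps insert tail-anchored proteins into membranes, had 231 fragments in HA-RB(245-255) and 215 in EV(245-255), a ratio of 0.10 (-0.17 to 0.38). SIVA1, an apoptosis gene, had 160 fragments in HA-RB(245-255) and 169 in EV(245-255). EEPD1 had 157 and TMEM87B 154 fragments in HA-RB(245-255), against 184 and 180 in EV(245-255). CIMAP1D had 241 fragments in HA-RB(245-255) and 303 in EV(245-255), a ratio of -0.33 (-0.58 to -0.08). SPATC1L had 131 fragments in HA-RB(245-255) and 180 in EV(245-255), a ratio of -0.46 (-0.79 to -0.13). With MCPH1 and B3GALNT2 higher and FARP2, CIMAP1D and SPATC1L lower in HA-RB(245-255), differences among the strongest ends stayed under 2-fold in both directions.

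The 4 genes that the series is built around showed no difference beyond counting error where a ratio could be formed. RB1 itself had 6 fragments in HA-RB(245-255) and 9 in EV(245-255), 93 and 126 bp from its start, a ratio of -0.58 (-2.36 to 1.07). TRIM24 had 55 fragments in HA-RB(245-255) and 60 in EV(245-255), a ratio of -0.13 (-0.68 to 0.43). DUSP2 had 16 fragments in HA-RB(245-255) at chr2:96145467, 27 bp from the start, and 17 in EV(245-255) at chr2:96145301, 139 bp from it, a ratio of -0.09 (-1.17 to 0.99). The DUSP2 interval still allows a difference of about 2-fold either way. MTOR had no shared summit. A stack of 14 fragments lay 122 bp from its start in HA-RB(245-255), where the EV(245-255) list has a gap of 9965 bp, and a stack of 5 fragments lay at its far end in EV(245-255). No ratio can be given for the MTOR start, since a gap in a list can still hide fragments.

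Gene ends without a partner were compared through the covering interval of the other list, whose own summit is the highest stack it can hide. Such upper limits separated the libraries at few genes. Of 4394 gene end summits of at least 10 fragments in HA-RB(245-255), 24 (0.546%) were at least 2 times the limit in EV(245-255). Of 4423 in EV(245-255), 25 (0.565%) were at least 2 times the limit in HA-RB(245-255). The balance depended on the settings: with no summit of the other library within 1 kb the counts were 16 higher in HA-RB(245-255) and 8 higher in EV(245-255), and with a gene end window of 500 bp they were 22 and 13. A further 523 unpaired HA-RB(245-255) summits lay in gaps of the EV(245-255) list and 443 unpaired EV(245-255) summits in gaps of the HA-RB(245-255) list, and these could not be compared. A gap sets no useful limit, because 1 fragment of the IgG control counted as much as 19.5 fragments of HA-RB(245-255) or 23.1 of EV(245-255) when the lists were made. The largest bounded stack in HA-RB(245-255) was at ELL, an elongation factor of RNA polymerase II, with 32 fragments against at most 12 in EV(245-255). CHST13, a sulfotransferase, had 10 fragments in HA-RB(245-255) against at most 3 in EV(245-255). SYT1, a calcium sensor of vesicle release, had 16 fragments in HA-RB(245-255) against at most 6 in EV(245-255). Others among those with the largest bounded ratio were MFHAS1, JRK with PSCA, CFAP210 with PHOSPHO2, and TMPRSS9, at 11 to 14 fragments in HA-RB(245-255) against at most 3 to 6 in EV(245-255).

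In the other direction the largest bounded stack was at SEC63, part of the protein translocation machinery of the endoplasmic reticulum, with at most 16 fragments in HA-RB(245-255) and 44 in EV(245-255). ZFAND6, a zinc finger protein, had at most 6 fragments in HA-RB(245-255) and 22 in EV(245-255). SPON2, a secreted matrix protein, had at most 4 fragments in HA-RB(245-255) and 15 in EV(245-255). LIG4, the ligase of DNA end joining, shares its promoter with ABHD13 and had at most 4 fragments in HA-RB(245-255) and 11 in EV(245-255). FOXD3, DONSON with SON, MGAT5B and PEX26 had at most 4 to 6 fragments in HA-RB(245-255) and 10 to 15 in EV(245-255). The median stack of these bounded ends was 13 fragments in both directions, so most rest on few fragments.

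Gene groups were read as counts beside all shared gene ends, of which 1744 (40.8%) were above 0, 404 at 0 and 2125 (49.7%) below. In the same set of 4273, the interval lay above 0 at 41 (0.96%) and below 0 at 84 (1.97%). Of 15 lists with at least 4 shared pairs, 2 had a median above 0, and single members past counting error were rare in each of them.

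Among RB family and E2F genes, 13 pairs were shared, with 3 above 0, 1 at 0 and 9 below and a median of -0.13. No interval left 0. LIN54, a DNA-binding subunit of the MuvB core, had 46 fragments in HA-RB(245-255) and 53 in EV(245-255). E2F8, a repressor of the family, had 46 fragments in HA-RB(245-255) and 38 in EV(245-255), and E2F2, an activator, had 41 and 42. RBL1, which encodes the pocket protein p107, had 21 fragments in HA-RB(245-255) and 14 in EV(245-255), a ratio of 0.58 (-0.46 to 1.67).

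The list of TRIM24, its relatives and HP1 partners stood lowest of those lists, with 8 pairs, 0 above 0, 1 at 0 and 7 below and a median of -0.28. Its members together held 286 fragments in HA-RB(245-255) and 351 in EV(245-255), a pooled ratio of -0.30 (-0.53 to -0.07), and no single member's interval left 0. The pooled ratio over all shared gene ends was -0.06, so the upper bound of the list lay next to the typical value. The largest contributions came from CBX5, which encodes HP1 alpha and shares its promoter with HNRNPA1, with 69 fragments in HA-RB(245-255) and 90 in EV(245-255). CBX3, which encodes HP1 gamma and shares its promoter with HNRNPA2B1, had 55 fragments in HA-RB(245-255) and 73 in EV(245-255). TRIM28, the corepressor of KRAB zinc finger proteins, had 58 fragments in HA-RB(245-255) and 66 in EV(245-255). The pooled interval holds counting error only, and the list is small.

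Cell cycle genes stayed close to the other gene ends. DNA replication genes had 23 pairs, 10 above 0, 2 at 0 and 11 below, and a median of 0.00. PCNA, the sliding clamp, had 73 fragments in HA-RB(245-255) and 71 in EV(245-255), at a site also near an end of CDS2. The helicase subunit gene MCM7, whose site is also near an end of AP4M1, had 58 and 57. MCM5, of the same helicase, had 50 fragments in HA-RB(245-255) and 60 in EV(245-255). Genes of G1 cyclins, kinases and inhibitors had 8 pairs with a median of -0.18, led by CDK4 with 110 fragments in HA-RB(245-255) and 117 in EV(245-255). CCND1, the cyclin partner of CDK4, had 28 fragments in HA-RB(245-255) and 22 in EV(245-255). Mitosis genes had 9 pairs, 2 above 0 and 6 below, with a median of -0.23, and no interval left 0 in any of these 3 lists. TTK, the spindle checkpoint kinase, had 19 fragments in HA-RB(245-255) and 29 in EV(245-255).

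The dual specificity phosphatases, the family of DUSP2, were split evenly, with 4 pairs above 0, 1 at 0 and 4 below and a median of 0.00. DUSP1, a nuclear phosphatase induced by stress, had 51 fragments in HA-RB(245-255) and 42 in EV(245-255), a ratio of 0.28 (-0.34 to 0.90). DUSP16, which acts on JNK and p38, had 25 fragments in HA-RB(245-255) and 43 in EV(245-255), and its ratio of -0.78 (-1.56 to -0.04) was the only one in the family whose interval left 0. DUSP4 had 21 fragments in HA-RB(245-255) and 31 in EV(245-255), and DUSP6, the cytoplasmic ERK phosphatase, had 25 and 20. DUSP18 had the highest ratio, 1.00 (-0.31 to 2.43), from 16 fragments in HA-RB(245-255) and 8 in EV(245-255). DUSP10 had no pair, and its EV(245-255) stack of 46 fragments lay in an HA-RB(245-255) interval that could hold up to 58.

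The RAS, RAF, MEK and ERK list had 7 pairs, 3 above 0, 1 at 0 and 3 below, and a median of 0.00. The interval of 1 pair, not named here, lay below 0, and 0 lay above. SHC1, an adaptor of growth factor receptors, had 78 fragments in HA-RB(245-255) and 69 in EV(245-255), a ratio of 0.18 whose interval held 0. The SHC1 site is also near an end of CKS1B. Immediate-early genes, the transcriptional targets of ERK, had 8 pairs, 1 above 0 and 7 below, with a median of -0.13. JUN had 68 fragments in HA-RB(245-255) and 70 in EV(245-255), JUND had 53 and 54, and EGR1 had 32 and 35, so the stacks in this list were below but close.

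The mTOR signalling list had 22 pairs, 9 above 0, 2 at 0 and 11 below, and a median of -0.01. The interval of 1 pair, not named here, lay below 0, and 0 lay above. AKT1S1, which encodes the mTORC1 inhibitor PRAS40, had 68 fragments in HA-RB(245-255) and 69 in EV(245-255), at a site also near an end of TBC1D17. EIF4B, a translation factor, had 56 fragments in HA-RB(245-255) and 78 in EV(245-255). RHEB, the GTPase that activates mTORC1, had 43 fragments in HA-RB(245-255) and 48 in EV(245-255), and DDIT4, an mTORC1 inhibitor induced by stress, had 38 and 51. TSC2, a brake on RHEB, had 10 fragments in each library, at a site also near an end of NTHL1.

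Genes of p53 and stress had 18 pairs of 17 genes, 5 above 0, 2 at 0 and 11 below, and a median of -0.18. Their pooled ratio was -0.16 (-0.32 to -0.0047), an interval that holds the -0.06 of all shared gene ends. GADD45A, a growth arrest gene, had 26 fragments in HA-RB(245-255) and 47 in EV(245-255), a ratio of -0.85 (-1.60 to -0.13), and was the only pair of the list whose interval left 0. DDIT3, which encodes the stress factor CHOP, had 114 fragments in HA-RB(245-255) and 131 in EV(245-255), at a site also near an end of MBD6. TP53I3 had 69 fragments in HA-RB(245-255) and 92 in EV(245-255), at a site also near ends of FAM228B and SF3B6. FDXR, a mitochondrial reductase, had 71 fragments in HA-RB(245-255) and 57 in EV(245-255).

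Prostate lineage genes had 11 pairs, 5 above 0, 1 at 0 and 5 below, and a median of 0.00. ELL2, an elongation factor that shares its promoter with CAST, had 46 fragments in HA-RB(245-255) and 48 in EV(245-255). FKBP5, a chaperone, had 29 fragments in HA-RB(245-255) and 26 in EV(245-255). FOXA1, a pioneer factor of the prostate, had 14 fragments in HA-RB(245-255) and 19 in EV(245-255) at summits too far apart to pair. NF-kB genes had 7 pairs with a median of -0.03, among them RELB, with 24 fragments in HA-RB(245-255) and 35 in EV(245-255). Interferon response genes had only 2 pairs, USP18 and TAP1, with 8 and 6 fragments in HA-RB(245-255) and 6 and 5 in EV(245-255). The TAP1 site is also near an end of PSMB8.

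Oxidative phosphorylation genes stood highest of the lists with at least 4 pairs, with 21 pairs, 15 above 0 and 6 below, and a median of 0.17. ATP5MC1 and ATP5F1B, subunits of the ATP synthase, had 90 and 83 fragments in HA-RB(245-255), against 70 and 74 in EV(245-255). NDUFA11, of complex I, had 134 fragments in HA-RB(245-255) and 128 in EV(245-255), at a site also near an end of VMAC. NDUFB4, also of complex I, had the lowest ratio of any list member, -1.81 (-3.87 to -0.14), from 4 fragments in HA-RB(245-255) and 14 in EV(245-255). The pooled ratio of the list was 0.13 (-0.04 to 0.30). Cytosolic ribosomal protein genes had 15 pairs, 7 above 0, 1 at 0 and 7 below, and a median of 0.00, with RPS16 at 33 fragments in HA-RB(245-255) and 30 in EV(245-255). Polycomb and DNA methylation genes had 6 pairs and a median of 0.03, with EZH2, the histone H3K27 methyltransferase, at 44 fragments in HA-RB(245-255) and 47 in EV(245-255). Genes of other organs had 0 shared pairs. Of 39 such genes, 5 had a summit in HA-RB(245-255) and 7 in EV(245-255), such as the liver gene APOA1 with 8 fragments in EV(245-255), and 28 had none in either.

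**Figure D3:**
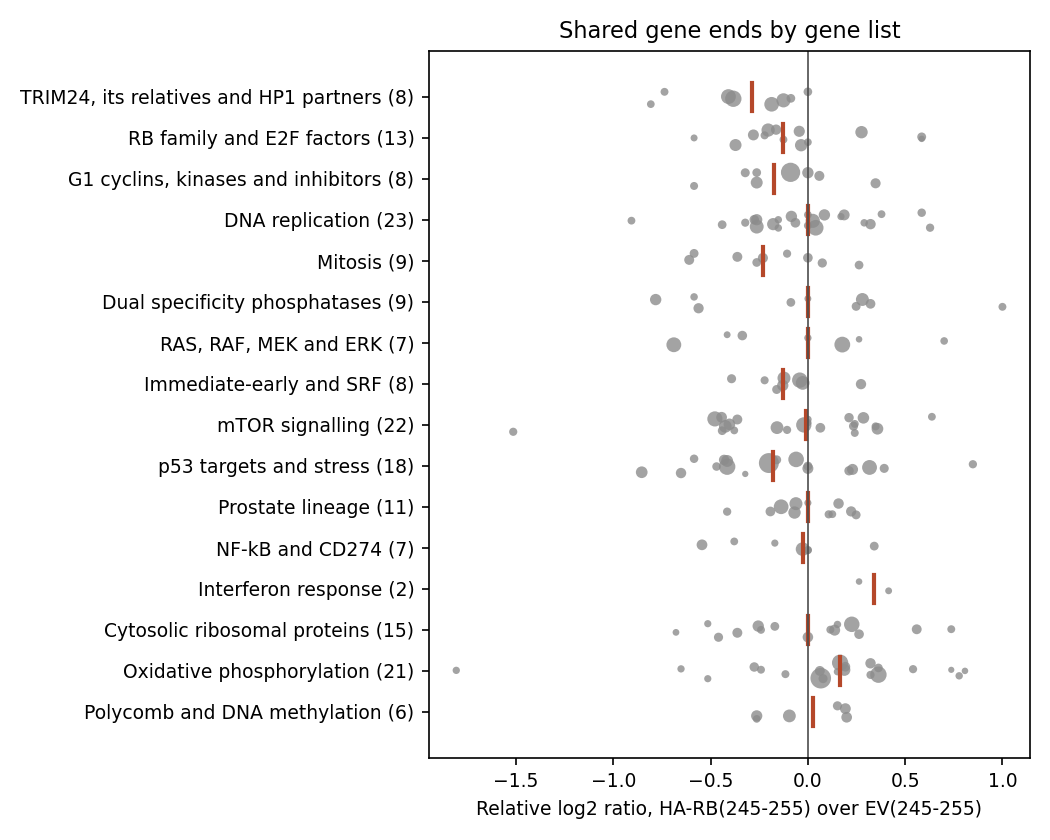
Relative log2 ratio of fragments, HA-RB(245-255) over EV(245-255) (x axis), for each shared gene end of each list (rows, number of pairs in brackets). Dot size grows with the fragments summed over both libraries, and the red bar is the list median, which runs from -0.28 for the TRIM24 list to 0.17 for oxidative phosphorylation among lists with at least 4 pairs.

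The pair can be set beside other pairs of libraries of the series at gene ends of at least 40 fragments. HA-RBN and EV(RBN) have no IgG library, and their fragment numbers were recovered without the scaling to a control. Their median intervals were 521 and 450 bp wide and covered 4.96% and 2.79% of the chromosomes. Spreads that involve these 2 libraries are therefore not measured in quite the same way. HA-RB(245-255) over EV(245-255) had a spread 0.98 times its counting error, the lowest of the 9 pairs compared. RB1_S1 over RB1_NC had 1.07 times, and HA-RBN over EV(RBN) 1.20 times. Control libraries of different experiments differed more: EV(245-255) over RB1_NC had 1.77 times, EV(245-255) over EV(RBN) 1.86 times, and RB1_NC over EV(RBN) 1.49 times. Thus 198 of 1773 gene ends lay beyond 2-fold of the median between EV(245-255) and RB1_NC, whereas 15 of 1692 did between HA-RB(245-255) and EV(245-255). Across gene ends, the ratio of HA-RB(245-255) over EV(245-255) had r of -0.07 and rho of -0.08 with that of RB1_S1 over RB1_NC (1005 gene ends), and r of -0.04 and rho of -0.05 with that of HA-RBN over EV(RBN) (656 gene ends). These describe the libraries at hand.

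**Figure D4:**
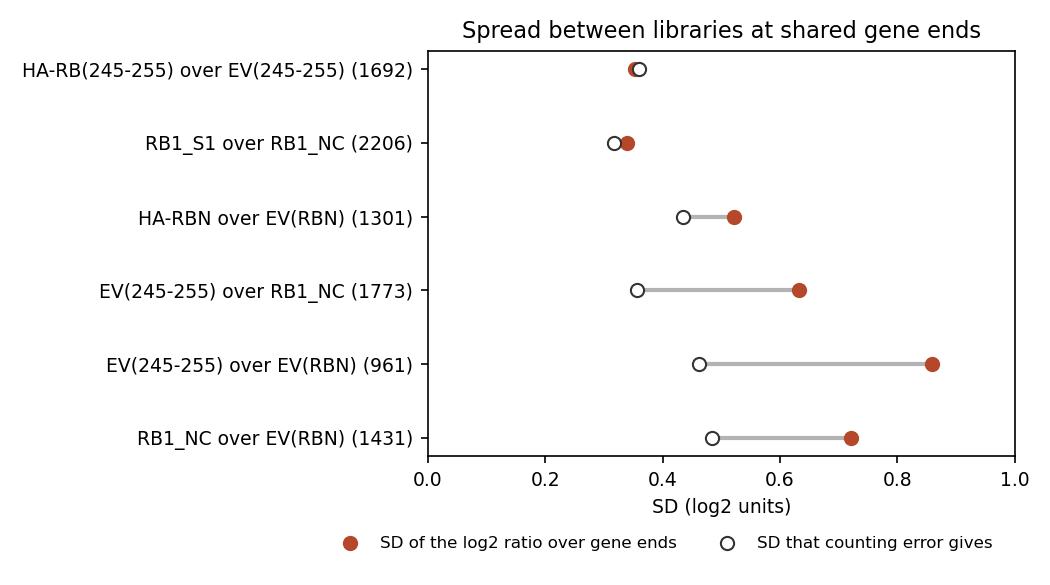
Standard deviation of the log2 ratio at gene ends of at least 40 fragments (filled) beside that from counting alone (open), for the library pairs whose ratios are given above. The pair of HA-RB(245-255) over EV(245-255) has 0.353 against 0.360, and EV(245-255) over EV(RBN) has 0.859 against 0.463.

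Away from gene ends the ratio varied more than counting error alone gives, and most sites past 2-fold were lower in HA-RB(245-255). The 1379 shared summits of at least 40 fragments in gene bodies or between genes had a standard deviation of 0.443, against 0.351 from counting. HA-RB(245-255) was more than 2-fold higher at 8 of them (0.58%) and more than 2-fold lower at 37 (2.68%). Past counting error the directions were closer, with the interval above 0 at 67 (4.86%) and below 0 at 80 (5.8%). The 700 sites in gene bodies had a standard deviation of 0.435, with 23 intervals above 0 and 39 below. The 679 intergenic sites had a standard deviation of 0.453, with 44 intervals above 0 and 41 below. Ends of non-coding genes count here as away from gene ends. The sites named below were chosen after their values were seen.

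The spread was widest near the ends of the chromosomes. Within 5 Mb of a chromosome end, a limit chosen after seeing the data, 338 sites had a standard deviation of 0.553, against 0.317 from counting. The 1041 sites farther in had 0.401, against 0.361. Of the 37 sites more than 2-fold lower in HA-RB(245-255), 18 (48.6%) lay within 5 Mb of an end, as did 24.5% of all 1379 sites. Of the 8 more than 2-fold higher, 3 (37.5%) did. Among the 338 sites the interval lay above 0 at 39 and below 0 at 40. By contrast, 227 gene ends in the same stretches had a standard deviation of 0.335, against 0.351 from counting, with 0 more than 2-fold higher and 0 more than 2-fold lower.

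The lowest ratio by its upper bound was at chr4:181240118, 207495 bp from TENM3, with 171 fragments in HA-RB(245-255) and 1012 in EV(245-255), a ratio of -2.57 (-2.81 to -2.33). No summit of the other 4 immunoprecipitated libraries lay within 250 bp of it. A site at chr10:3315023 had 34 fragments in HA-RB(245-255) and 218 in EV(245-255), a ratio of -2.68 (-3.25 to -2.15). In the body of LMF1, a lipase maturation factor, the stacks were 58 in HA-RB(245-255) and 261 in EV(245-255), a ratio of -2.17 (-2.61 to -1.75). SHC2, a signalling adaptor, had 102 fragments in HA-RB(245-255) and 301 in EV(245-255) in its body, and PTPRN2 had 67 and 188. A site 2020 bp from C1QTNF12 had 68 fragments in HA-RB(245-255) and 227 in EV(245-255), which is 272 and 1211 times the background, beside 470 times in RB1_S1 and 666 times in RB1_NC. All of these but the chr4 site lay within 5 Mb of a chromosome end.

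Fewer sites were past 2-fold higher in HA-RB(245-255). In the body of PIK3C3, the lipid kinase of autophagy, the stacks were 64 in HA-RB(245-255) and 20 in EV(245-255), a ratio of 1.68 (0.93 to 2.48). In the body of SMOC2, a matrix protein gene, they were 31 in HA-RB(245-255) and 11 in EV(245-255), a ratio of 1.49 (0.46 to 2.64). The 3 sites in LOC102724250 with the highest lower bounds, at chr1:630821, chr1:632576 and chr1:633468, had 182 to 250 fragments in HA-RB(245-255) and 97 to 152 in EV(245-255), with ratios of 0.72 to 0.91. Neighbouring sites in this short stretch were also higher in HA-RB(245-255), such as 295 fragments against 210 and 154 against 98. Each was counted separately in the numbers for gene bodies and chromosome ends, so they may be 1 locus counted repeatedly. Among the few tallest stacks away from gene ends, those near the tips of the chromosomes differed by less than 2-fold. The largest of these differences was at chr16:89995398, 0.23 Mb from an end. It had 2046 fragments in HA-RB(245-255) and 1431 in EV(245-255), a ratio of 0.52 (0.42 to 0.61). The summit at chr5:10676 had 4723 fragments in HA-RB(245-255) and 4260 in EV(245-255), a ratio of 0.15 (0.09 to 0.21). That at chr10:10198 had 1381 and 1375, a ratio of 0.01 (-0.10 to 0.12). The tallest stack of HA-RB(245-255), 32172 bp from NID1 on chromosome 1, had 5206 fragments in HA-RB(245-255) and 4257 in EV(245-255), a ratio of 0.29 (0.23 to 0.35).

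**Figure D5:**
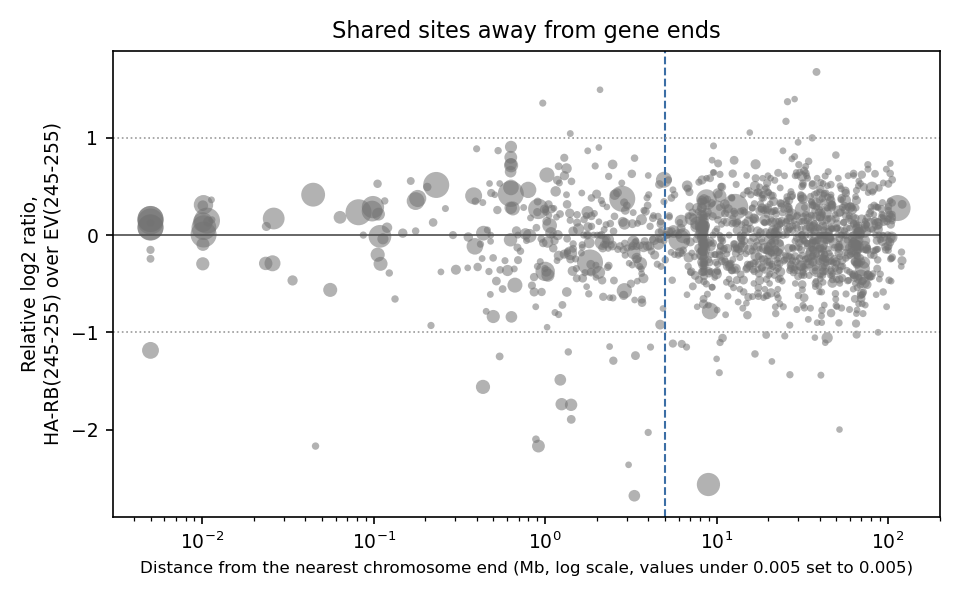
Relative log2 ratio of fragments, HA-RB(245-255) over EV(245-255) (y axis), against distance from the nearest chromosome end in Mb (x axis, log scale, the nearest sites drawn at the left edge), for shared summits of at least 40 fragments away from gene ends, with dots that grow with the fragments summed. The dashed line marks 5 Mb and dotted lines a ratio of 1 or -1. Of the 37 sites away from gene ends below -1, 18 lie left of the dashed line, and of the 8 above 1, 3 do.

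Large stacks without a partner were few and mostly could not be compared. Of 1267 HA-RB(245-255) summits with at least 40 fragments, 181 had no EV(245-255) summit within 250 bp. Of these, 73 lay in a gap of the EV(245-255) list and 73 in an interval that could hold as much, and 1 was at least 2 times its limit. Of 1366 EV(245-255) summits of that size, 186 had no HA-RB(245-255) partner, 50 lay in a gap of the HA-RB(245-255) list and 97 in an interval that could hold as much, and 4 were at least 2 times their limit. Among the listed genes, NDUFA6, of complex I, had 44 fragments in HA-RB(245-255) inside a gap of 1174 bp in EV(245-255). CBX8, a polycomb reader, had 55 fragments in EV(245-255) inside a gap of 1054 bp in HA-RB(245-255). Neither shows a loss in the other library, since gaps set no useful limit.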

How the data were processed

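The files are peak lists, 1 per immunoprecipitated library, deposited by the authors with no header and no name column. MACS2 2.1.0, Bowtie 1.1.2, Trimmomatic 0.33, bcl2fastq 2.17 and the hg38 build are named in the submitters' processing notes, with their roles, settings and filters on duplicate reads not given in the sources used here. Each deposited line gives an interval, a summit, the fold enrichment over the local background (a ratio), the −log10 p and the −log10 q, as the authors' peak caller wrote them. Library totals are not in the lists, so depth is known only as fragments at summits and as the background per base. Peaks were listed per library.

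Fragments at each summit were recovered as the solution of the caller's formulas for the fold and the −log10 p in which the stack is a whole number of fragments within a tolerance of 0.02, taking the lowest where several solved it. More than 1 solution was possible for 1.54% of HA-RB(245-255) summits and 1.34% of EV(245-255) summits, and 2 and 0 summits had none. At gene ends of at least 40 fragments the shares with more than 1 were 9.69% and 16.9%. The recovery was checked on data simulated from the same formulas with low backgrounds, so that check could not test the choice of the lowest solution. Summits were paired, each the nearest of the other, within 250 bp, and assigned to RefSeq (GRCh38.p14) protein-coding genes with an end within 1 kb. Strand was known for 15811 of 19970 genes. Ratios carry exact binomial intervals of the split of fragments between the libraries. Of 499 list symbols 497 matched. Chromosome ends were taken as the outermost listed coordinates.

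Genes named are RB1, TRIM24, DUSP2 and MTOR. To these were added the 12 shared gene ends of at least 40 fragments with the highest and the 12 with the lowest interval bound nearest 0, the 10 with the most fragments, and the 8 with the largest bounded ratio in each direction. Each list gave up to 4 members with the most fragments and any whose interval left 0, and a few other list members (RBL1, DUSP18, TSC2, FOXA1, DUSP10, APOA1, NDUFA6 and CBX8) and all sites away from gene ends were named after their values were seen. The pair, the lists and the markers were chosen with earlier results of these data known. Alternatives were other pairing distances, gene windows, fragment minimums, centrings and solutions, and a −log10 q of at least 2. Python 3.11.15, numpy 2.4.6, pandas 2.3.3, scipy 1.17.1 and matplotlib 3.10.9 were used. The IgG libraries were not analysed here. A few genes that the naming rule would give are not reported here.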

Additional observations from a re-analysis of the deposited data

How the results depend on the processing

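No paired analysis was possible because each group has 1 library, and no replicate could be left out. Under the alternatives, 44 recomputed counts and summary values stayed near those reported and 43 moved further. Pairing within 100 bp gave 4 gene ends below -1, 37 intervals below 0, a spread of 0.338 and 9 list medians above 0 (2 as reported, counted over lists with at least 4 pairs), and pairing within 500 bp a spread of 0.384. Requiring a −log10 q of at least 2 in both lists left 394 shared summits with a median of -0.49, 0 gene ends above 1 and 0 below -1, 7 intervals above 0 and 4 below, a spread of 0.246 and 0 list medians above 0, since no list with a median above 0 kept 4 pairs. The highest solution for the fragment number gave 397 gene ends above 1, 363 below -1, 419 intervals above 0, 418 below and a spread of 2.68. At gene ends with more than 1 solution, the background of the highest was a median of 7.32 control fragments in HA-RB(245-255) and 7.99 in EV(245-255), against 0.0128 and 0.00813 for the lowest. A gene window of 500 bp gave 6 list medians above 0 and 22 bounded ends higher in HA-RB(245-255) against 13 higher in EV(245-255). A minimum of 20 fragments gave 29 gene ends above 1, 54 below -1, 39 intervals above 0 and a spread of 0.448. A minimum of 80 gave 0 gene ends above 1, 1 below -1, 11 intervals above 0, 31 below and a spread of 0.302. Without centring there were 1 above 1, 135 below -1, 1 interval above 0, 458 below and 0 list medians above 0. Centring on gene ends of at least 40 fragments, chosen after seeing the data, gave 7 above 1 and 9 list medians above 0. Bounded ends of at least 20 fragments numbered 4 in HA-RB(245-255) and 2 in EV(245-255), and at a ratio of 1.5 there were 69 and 66. With no summit within 1 kb of the other library, 16 bounded ends were higher in HA-RB(245-255) and 8 higher in EV(245-255). Summits of at least 10 fragments marked 5200 genes in HA-RB(245-255) and 5207 in EV(245-255). Of 143 recomputed list medians, 131 stayed inside the interval of the reported median. At this depth the intervals of DUSP2 and RB1 reached past a 2-fold difference, so a smaller one was not detectable there.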
